A study of Mus musculus with 2 samples.

Results

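Long reads from 8 genes of the stretch-sensing and attachment machinery of striated muscle were followed in the gastrocnemius of aged mice: Xirp1, Xirp2, Nrap, Csrp3, Ankrd1, Ankrd2, Fhl1 and Fhl3. They were taken by symbol from the annotated genes of both read tables, 8 of the 14900 annotated genes with reads. The 2 libraries were biological replicate 2 and biological replicate 1 of a single group, male B6CASTF1/J mice (the F1 cross of C57BL/6J with CAST/EiJ) of 18 to 20 months, and the design holds no second condition, genotype or treatment. Both libraries were prepared from 2 µg of RNA, to which 2 sets of spike-in RNA had been added (SIRV, and ERCC in the form of Ambion mix 1). They have separate biosamples in the labels but an identical donor entry, so whether the libraries stand for separate animals, and whether tissue was pooled, is not given in the sources used here.

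The Xin proteins, encoded by Xirp1 and Xirp2, bind and cross-link actin at the intercalated discs of the heart and at the myotendinous junctions of skeletal muscle, and NRAP, a LIM protein with nebulin repeats, sits at the same sites and takes part in myofibril assembly. Muscle LIM protein (Csrp3) and the ankyrin repeat proteins CARP (Ankrd1) and ARPP (Ankrd2) are found at the Z-disc or on titin in the I-band, can enter the nucleus, and are known for their response to stretch and overload. FHL1 and FHL3 consist of LIM domains and bind sarcomeric and transcriptional partners, and mutations of the human FHL1 gene cause several myopathies.

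The tables held 1173233 reads in replicate 2 and 1509380 reads in replicate 1. The 8 genes took 4055 reads in replicate 2, or 0.346% of the library, and 1074 reads in replicate 1, or 0.0712%. They were selected on the reads in these libraries, with the difference between replicate 2 and replicate 1 known, so that levels, ratios, transcript shares and exon shares are given as descriptions of 2 libraries and carry no p-value. Levels are reads per 1000000 reads in the table (CPM), ratios are replicate 2 over replicate 1, and intervals of levels and shares are exact 95% Clopper-Pearson intervals, which cover counting error only. In whole muscle, fewer cells of a type and less RNA per cell cannot be told apart.

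The labelled tissue was read against marker genes. The summed level of 7 fast-fibre markers was 53181 CPM in replicate 2 against 56513 CPM in replicate 1. Of these, Myh1 was called higher in replicate 2, Tnni2, Pvalb and Mylpf were called lower and 3 had no call, with a median log2 ratio of -0.75. The 9 slow-fibre markers had a summed level of 5027 CPM in replicate 2, against 403 CPM in replicate 1, and all 9 were called higher in replicate 2. Heart markers were close to 0, with sums of 22.2 CPM in replicate 2, 7.95 CPM in replicate 1 and no read in either library for 5 of 9, among them Nppa, Myl7 and Tnni3, while Myh6, a near-identical neighbour of Myh7, had 15 reads in replicate 2 and 0 in replicate 1. Of 6 tendon markers tested none was called, and all 7 listed summed to 188 CPM in replicate 2, against 150 CPM in replicate 1. The markers of myotendinous junction nuclei other than Ankrd1 had 21.3 CPM in replicate 2, against 11.9 CPM in replicate 1. Spike-in RNAs made up 0.595% of replicate 2 and 2.74% of replicate 1. Vessel markers were higher as well. Of 5 endothelial genes 3 were called (summed level 102 CPM in replicate 2, against 37.8 CPM in replicate 1). Of 4 smooth-muscle genes tested 3 were called. All 5 listed summed to 395 CPM in replicate 2, against 199 CPM in replicate 1, of which Rgs5 alone had 303 CPM in replicate 2 and 148 CPM in replicate 1. Under TMM scaling 2 genes of each list were called, and after length centring 3 endothelial and 2 smooth-muscle genes. Among 3 regenerating-fibre genes tested, Myh3 was called higher (14 reads in replicate 2, 0 in replicate 1) and Myog lower (17 and 56). Cd74, 1 of 2 immune genes tested, was called lower, though not after length centring. No satellite-cell, fibroblast or neuromuscular junction gene was called. Across all 9032 genes tested, 8.24% were called higher on total reads. The part of fibre and vessel content and of the spike-in share in the differences described here was not tested.

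Nrap was read with a cassette exon whose use differed between the libraries, shown here because most of the exon comparison turns on it. Exon 12 of Nrap-202 (mm10, chr19:56374364-56374468, minus strand, a coding exon of 105 nt) is included in Nrap-202 and left out in Nrap-201. The transcript sequences, from GENCODE M21 and spanning chr19:56372895-56378074 with the introns removed, show the exon in capitals between 20 bases of each neighbour, and the joined last and first bases of exons 11 and 13 in capitals where it is skipped.
Nrap-202 exon 12 with its neighbours: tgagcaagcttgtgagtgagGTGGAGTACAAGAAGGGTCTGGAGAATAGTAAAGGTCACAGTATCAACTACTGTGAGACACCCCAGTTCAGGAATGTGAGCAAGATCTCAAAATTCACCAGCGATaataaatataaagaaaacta
Nrap-201 exon 11 to exon 13 junction: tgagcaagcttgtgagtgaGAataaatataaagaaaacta
The length of the exon is a multiple of 3, so both forms keep the reading frame.

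Fhl1 was read from separate first exons, and promoter windows near their starts are shown because the share of each first exon also differed. Both come from the RefSeq promoter table (build GRCm38.p6) and run from 250 bases before to 50 bases after the annotated start, on the plus strand. In the upstream window, chrX:56779433-56779732, capitals mark TATAAA on the opposite strand and a CArG box, the letters recognised by serum response factor.
Fhl1 upstream window: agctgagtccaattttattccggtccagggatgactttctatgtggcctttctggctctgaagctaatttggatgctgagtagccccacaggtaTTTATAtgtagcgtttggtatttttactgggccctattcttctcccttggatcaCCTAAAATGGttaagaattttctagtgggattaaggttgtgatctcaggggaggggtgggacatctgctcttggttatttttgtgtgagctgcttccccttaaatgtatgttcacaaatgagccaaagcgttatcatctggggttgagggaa
Fhl1 downstream window: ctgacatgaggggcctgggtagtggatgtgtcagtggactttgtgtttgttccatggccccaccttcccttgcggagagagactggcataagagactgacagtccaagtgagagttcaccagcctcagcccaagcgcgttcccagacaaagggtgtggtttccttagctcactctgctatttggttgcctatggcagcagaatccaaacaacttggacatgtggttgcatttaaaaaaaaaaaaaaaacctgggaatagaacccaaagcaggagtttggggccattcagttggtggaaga
The CArG box lies at bases -102 to -93 from the RefSeq start and TATAAA at -156 to -151. The upstream first exon of the reads begins at chrX:56779723, near the end of this window and downstream of the RefSeq start. The CArG box and TATAAA thus lie further upstream of that exon than these positions state. The downstream window, chrX:56786277-56786576, holds neither. On both strands, 1.63% of 32851 promoter windows of the same length hold a CArG box and 13.6% hold TATAAA. Windows were found for 7 of the 8 genes, 9 windows in all. Across them, CATTCC, the core bound by TEAD factors, occurred only in the Ankrd1 window, which held 2 copies and is not printed, against 14.7% of all windows with at least 1. The Xirp2 window, also not printed, held 1 TGANTCA and 1 MEF2 box, present in 7.81% and 3.19% of all windows. The Ankrd2 window held 1 TATAAA. The E-box CANNTG was in 8 of the 9 windows and in 72.3% of all windows. A match is a description of letters and says nothing of binding.

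The Xin actin-binding genes differed in how far their levels stood apart. Xirp1 (ENSMUSG00000079243.3, mm10 chr9:120013755-120023598, minus strand) had 909 reads in replicate 2 (775 CPM, 725 to 827) and 28 reads in replicate 1 (18.6 CPM, 12.3 to 26.8). The level was 41.8-fold higher in replicate 2 (28.7 to 63.2), a log2(CPM + 1) ratio of 5.31, and the second highest among 9032 genes that had 10 reads or more in the pair of libraries. Xirp2 (ENSMUSG00000027022.13, chr2:67446002-67526614, plus strand) had 508 reads in replicate 2 (433 CPM, 396 to 472) and 425 reads in replicate 1 (282 CPM, 255 to 310), a mean of 357 ± 107 CPM (SD, n = 2). Its log2 ratio was 0.62 on total reads, 0.42 under TMM scaling and -0.13 after centring on transcript length. The length bin used for Xirp2 was broad, with transcripts of 6882 to 123179 nt. The direction of Xirp2 thus depends on this centring.

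Nrap (ENSMUSG00000049134.15, chr19:56320035-56390037, minus strand), the nebulin-related anchoring gene, had 1128 reads in replicate 2 (961 CPM, 906 to 1019) and 434 reads in replicate 1 (288 CPM, 261 to 316). It was 3.34-fold higher in replicate 2 (2.99 to 3.74), with a log2 ratio of 1.74, or 1.11 after length centring.

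Among the Z-disc and titin-associated genes, Csrp3 (ENSMUSG00000030470.15, chr7:48830398-48848033, minus strand) had 184 reads in replicate 2 (157 CPM, 135 to 181) and 7 reads in replicate 1 (4.64 CPM, 1.86 to 9.56). Its level was 33.8-fold higher in replicate 2 (16.1 to 85.3), the fourth highest log2 ratio at 4.81. Ankrd2 (ENSMUSG00000025172.3, chr19:42036000-42045110, plus strand), the ankyrin repeat gene known from slow fibres, had 155 reads in replicate 2 (132 CPM, 112 to 155) and 18 reads in replicate 1 (11.9 CPM, 7.07 to 18.8). Its ratio was 11.1-fold (6.78 to 19.2). Its relative Ankrd1 (ENSMUSG00000024803.9, chr19:36111961-36120099, minus strand), best known from the heart, was barely read, with 13 reads in replicate 2 (11.1 CPM, 5.90 to 18.9) and 2 reads in replicate 1 (1.33 CPM, 0.160 to 4.79). The counting interval of the Ankrd1 ratio of 8.36 ran from 1.89 to 76.3, so its size is poorly known.

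The LIM-only genes behaved differently from each other. Fhl1 (ENSMUSG00000023092.16, chrX:56731787-56793346, plus strand) had 1146 reads in replicate 2 (977 CPM, 921 to 1035) and 144 reads in replicate 1 (95.4 CPM, 80.5 to 112), a 10.2-fold ratio (8.60 to 12.3). Fhl3 (ENSMUSG00000032643.12, chr4:124700701-124708611, plus strand) had 12 reads in replicate 2 (10.2 CPM, 5.29 to 17.9) and 16 reads in replicate 1 (10.6 CPM, 6.06 to 17.2), a mean of 10.4 ± 0.263 CPM (SD, n = 2). Its log2 ratio of -0.05 had an interval of the fold from 0.417 to 2.17, which includes both directions.

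**Figure D1:**
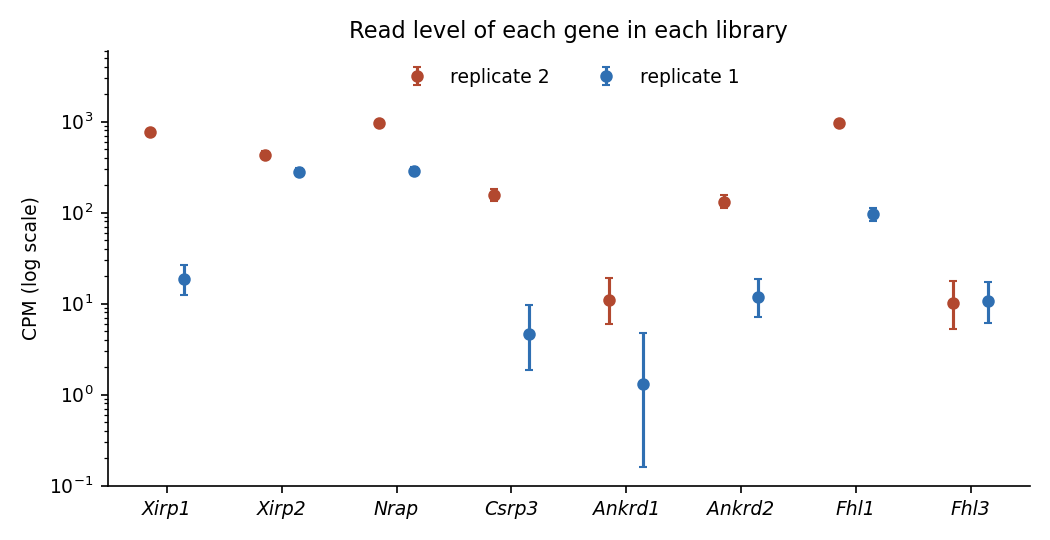
Level of each gene in CPM on a log axis, replicate 2 left of replicate 1, with exact 95% counting intervals. Intervals of the libraries do not overlap for Xirp1, Xirp2, Nrap, Csrp3, Ankrd1, Ankrd2 and Fhl1, and overlap for Fhl3. They cover counting error only, and the genes were chosen with this difference known, so nothing is read from the separation. The share of all genes with separate intervals was not determined. Xirp2 had no call.

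All 8 genes passed the minimum of 10 reads. By the call used across all genes (Fisher's exact test with Benjamini-Hochberg adjustment, adjusted p below 0.05 and at least 2-fold), 6 of the 8 genes were higher in replicate 2, 0 lower, and Xirp2 and Fhl3 had no call. The same rule called 8.24% of the 9032 genes higher and 2.04% lower, and since this contrast chose the genes, nothing is read from the excess. The split of all calls depends on the scaling, with 744 higher and 184 lower on total reads and 446 higher and 375 lower under TMM scaling, where the same 6 genes were called higher. The 6 genes were also called higher after length centring, where 4.00% of 8625 genes were called higher and 1.50% lower. Here the 2-fold cut was applied to the centred ratio, while the adjusted p remained that of the uncentred test. Genes of like length differed between the libraries too. The most read annotated transcripts of Xirp1, Nrap and Xirp2 have 5839, 5501 and 11979 nt, and genes of like length had median log2 ratios of 0.68, 0.62 and 0.75, so centring lowered the log2 ratio of Xirp1 to 4.63. Csrp3 and Ankrd2, with transcripts of 877 and 1138 nt, stood among genes of like length with medians of -0.40 and -0.32, and their log2 ratios after centring were 5.21 and 3.68. The log2 ratio of Fhl1, with 2283 nt, was 3.34 on total reads and 3.28 after centring.

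**Figure D2:**
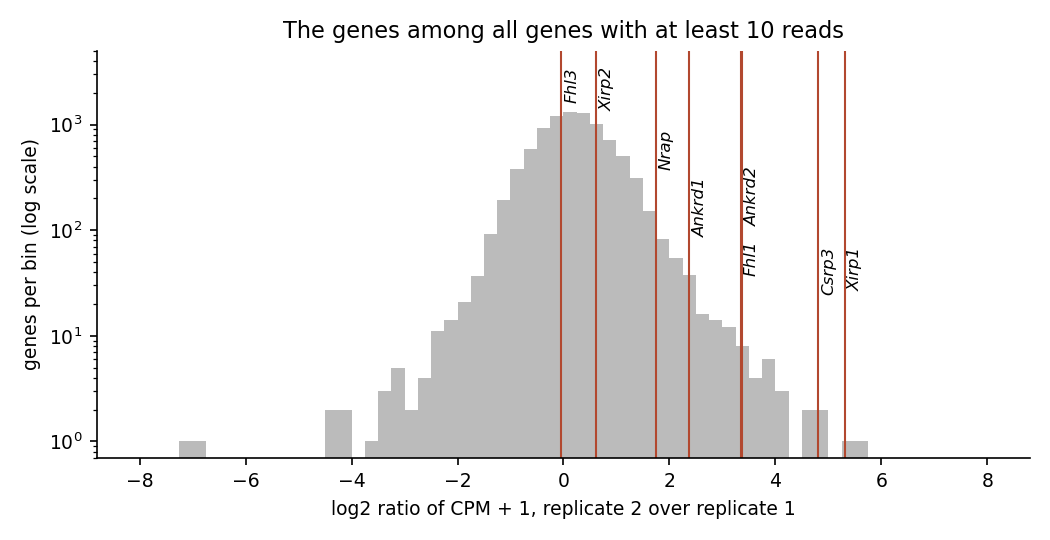
Histogram of the log2 ratio of CPM + 1, replicate 2 over replicate 1, over 9032 genes on a log count axis, with a line for each of the 8 genes. Xirp1 at 5.31 and Csrp3 at 4.81 lie in the far right tail, Fhl1 at 3.34 and Ankrd2 at 3.36 lie together, and Fhl3 at -0.05 lies near the centre.

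The genes nearest to each member in log2 ratio, among those of at least 20 mean CPM, were taken over only 2 libraries. For Ankrd2 and Fhl1 they were the same 3 slow-fibre troponin genes, Tnnt1, Tnni1 and Tnnc1, whose log2 ratios of 3.24, 3.24 and 3.22 lay within 0.15 of both members. For Csrp3 they were Myh7, the slow myosin heavy chain, Otud1 and Atf3, of which Myh7 was 0.06 away at 4.87. For Xirp1 they were Topbp1, Myh7 and Otud1, the closest 0.34 away. For Nrap they were the kinase gene Alpk3, Rundc1 and Bag3, the chaperone partner of filamin turnover, all within 0.03. For Ankrd1, whose ratio rests on 13 reads in replicate 2 and 2 in replicate 1, they were Lmo7, Dnaja4 and Myh1, a fast myosin heavy chain, at log2 ratios of 2.37, 2.40 and 2.35.

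Exon 12 of Nrap was included in 399 of 664 informative reads in replicate 2, or 60.1% (56.3% to 63.8%). In replicate 1 it was included in 173 of 201, or 86.1% (80.5% to 90.5%). The intervals did not overlap, and inclusion was 26.0 points lower in replicate 2. It was the only exon of the 8 genes with 20 or more informative reads per library and pooled inclusion between 5% and 95%. It met the call, as did 37 of 1492 exons tested (2.48%), and ranked ninth of those 37 by size, where the median was 18.9 points. Nrap was proposed with its transcript shares known, so the call supports nothing.

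The lower inclusion was found within reads of other structure. Counting only reads that join exon 1 to exon 2, a measure added after seeing the data, inclusion was 61.2% in replicate 2 (356 of 582) and 86.5% in replicate 1 (148 of 171). Exon 6 of Nrap carries an acceptor 3 nt upstream of the annotated one, and this longer exon (chr19:56382260-56382367) was used in 247 of 611 reads in replicate 2, or 40.4% (36.5% to 44.4%), and in 84 of 187 reads in replicate 1, or 44.9% (37.7% to 52.3%). The intervals of that choice overlapped. In reads with the longer exon 6, exon 12 was included in 61.8% of 246 in replicate 2 and 85.7% of 84 in replicate 1, and in reads with the annotated exon 6 in 60.4% of 364 in replicate 2 and 87.4% of 103 in replicate 1. The choice at exon 12 was thus close to the same on either form of exon 6 within each library. Exon 36, also coding and 105 nt long (chr19:56328996-56329100), was included in 95.8% (1040 of 1086) in replicate 2 and 93.7% (371 of 396) in replicate 1, with overlapping intervals. Acceptors 3 nt apart with at least 10% of reads each in both libraries were found at 194 of 41065 donors, or 0.472%.

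Xirp1 carried a pair of such acceptors too. Its exon 2 (chr9:120016426-120019819 in the annotation) started 3 nt further downstream, directly before the annotated start codon, in 101 of 692 reads in replicate 2, or 14.6% (12.05% to 17.4%), and in 3 of 20 reads in replicate 1, or 15.0% (3.21% to 37.9%). Intron 2 of Xirp1, of 391 nt, was retained in 100 of 819 reads in replicate 2, or 12.2% (10.05% to 14.7%), and in 2 of 22 reads in replicate 1, or 9.09% (1.12% to 29.2%). With so few Xirp1 reads in replicate 1 a difference in either choice was not detectable at this depth.

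**Figure D3:**
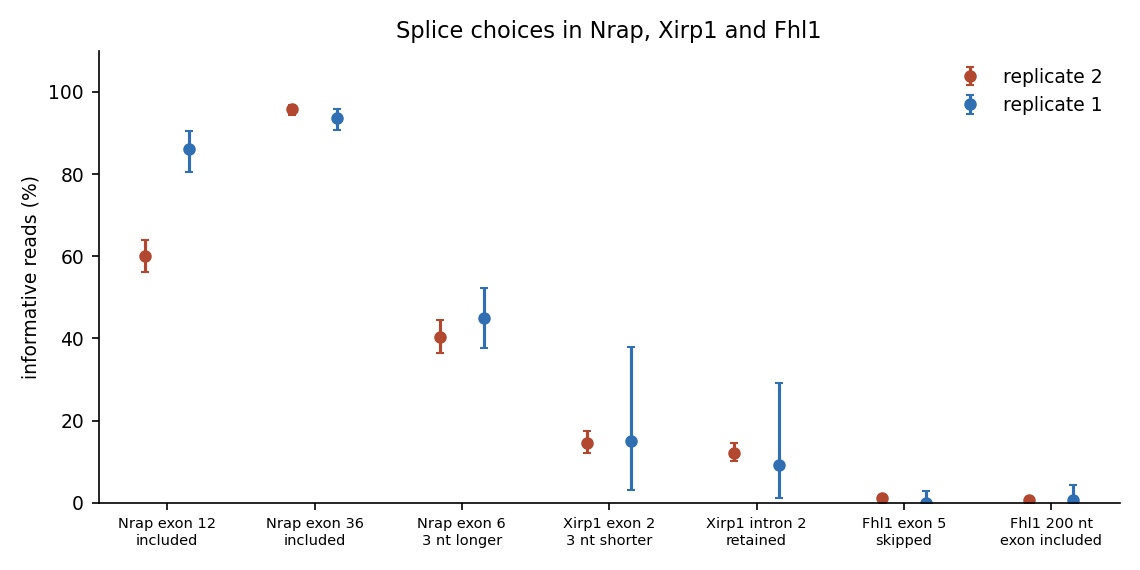
Share of informative reads with each splice choice, replicate 2 left of replicate 1, with exact 95% intervals. Nrap exon 12 stands at 60.1% in replicate 2 and 86.1% in replicate 1 with separate intervals, while the intervals of the other choices overlap.

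Most Fhl1 reads that entered the shared second exon came from either of 2 first exons. The upstream one, that of Fhl1-204 (chrX:56779723-56779794), began 1023 of 1085 reads in replicate 2, or 94.3% (92.7% to 95.6%), and 98 of 124 reads in replicate 1, or 79.0% (70.8% to 85.8%). The downstream one, that of Fhl1-207 (chrX:56786527-56786582), began 39 of 1085 in replicate 2, or 3.59% (2.57% to 4.88%), and 22 of 124 in replicate 1, or 17.7% (11.5% to 25.6%). As levels, reads from the upstream exon stood at 872 CPM in replicate 2 and 64.9 CPM in replicate 1, a 13.4-fold ratio. Reads from the downstream exon stood at 33.2 CPM in replicate 2 and 14.6 CPM in replicate 1, a 2.28-fold ratio. The annotated coding sequence of Fhl1-204 opens in its first exon and that of Fhl1-207 in the shared second exon. Those annotated proteins thus differ at the N-terminus. The downstream reads, 39 in replicate 2 and 22 in replicate 1, were on an unannotated model of 6 exons. Fhl1-207 has 5 exons. The protein of the unannotated model was not determined. In the promoter windows printed above, the upstream exon has the CArG box and TATAAA and the downstream exon has neither.

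**Figure D4:**
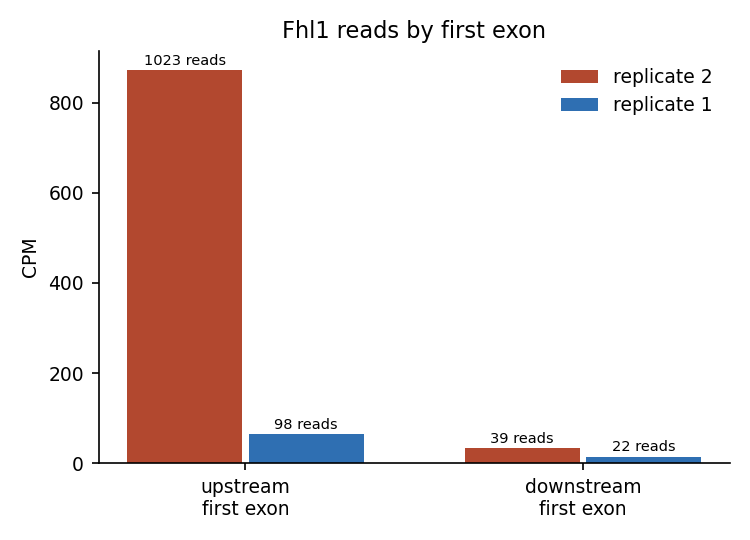
Fhl1 reads by first exon in CPM, replicate 2 left of replicate 1, with the number of reads above each bar. The upstream exon has 872 CPM in replicate 2, against 64.9 CPM in replicate 1, and the downstream exon 33.2 CPM in replicate 2 and 14.6 CPM in replicate 1.

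Skipping of Fhl1 exon 5 (chrX:56790464-56790650), of 187 nt and not a multiple of 3, was seen in 13 of 1113 reads in replicate 2, or 1.17% (0.623% to 1.99%), and in 0 of 130 in replicate 1, whose interval reaches 2.80%. An exon of 200 nt (chrX:56791239-56791438) was present in 7 of 1097 reads in replicate 2, or 0.638%, and in 1 of 130 in replicate 1, or 0.769%. At this depth neither could be told apart between the libraries.

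As whole transcripts, most genes were read mainly as 1 annotated form. Xirp1-201 gave 55.8% of Xirp1 reads in replicate 2 and 53.6% in replicate 1. Csrp3-201 gave 83.7% of Csrp3 reads in replicate 2 and 85.7% in replicate 1, on 7 reads there. Ankrd2-202 gave 75.5% of Ankrd2 reads in replicate 2 and 77.8% in replicate 1, and Ankrd1-205 gave all reads in both. For each of these genes the intervals of the libraries overlapped. Fhl3-201 gave 66.7% in replicate 2 and 37.5% in replicate 1 of at most 16 reads, with overlapping intervals. Fhl1-204 gave 86.5% of Fhl1 reads in replicate 2 and 68.1% in replicate 1. An unannotated 6-exon model from the downstream first exon gave 3.40% in replicate 2 and 15.3% in replicate 1.

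Nrap was spread over 128 models in replicate 2 and 74 in replicate 1, with no form in the majority. Nrap-202, with 42 exons, gave 16.8% of Nrap reads in replicate 2 and 17.7% in replicate 1. Nrap-201, without exon 12, gave 10.5% (8.82% to 12.5%) in replicate 2 and 2.53% (1.27% to 4.49%) in replicate 1. A 25-exon incomplete model gave 12.9% in replicate 2 and 10.1% in replicate 1. Of the 4 genes with 20 or more reads per library, the share of the most read transcript met the call in 2, Fhl1 and Xirp2, where 2.65% of 4535 genes did so, and nothing is read from that count.

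The read models show how far reads ran towards the 5' end. Of spliced Nrap reads, 1119 in replicate 2 and 413 in replicate 1, 52.4% in replicate 2 and 42.4% in replicate 1 began in exon 1. A second cluster of starts lay at exon 18, with 164 reads (14.7%) in replicate 2 and 48 reads (11.6%) in replicate 1. The reads thus reached exon 12 or further upstream in 60.6% in replicate 2 and 49.6% in replicate 1, which is why the exon 12 comparison rests on fewer reads than the gene.

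**Figure D5:**
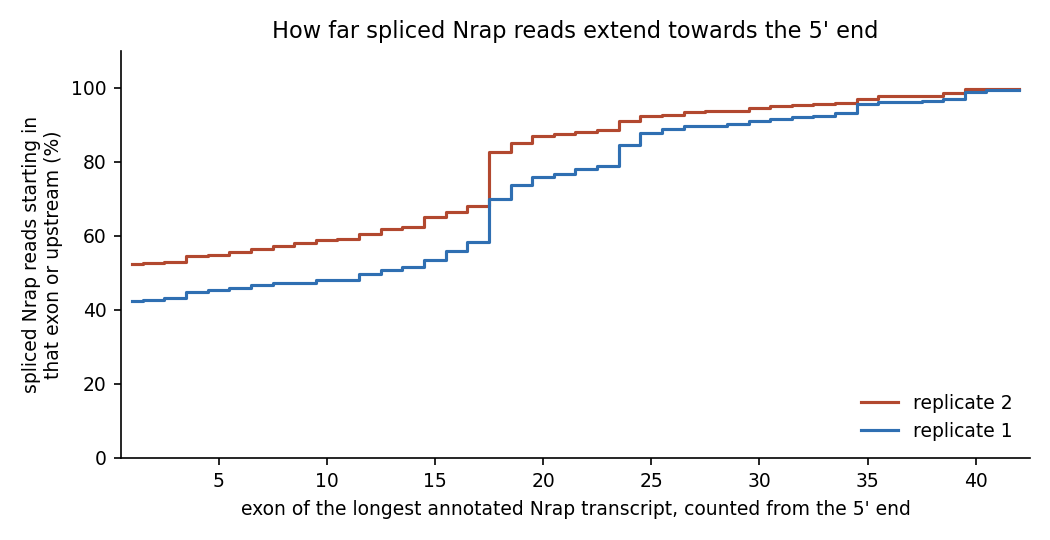
Share of spliced Nrap reads that start in a given exon of Nrap-202 or upstream of it, by exon number from the 5' end, replicate 2 and replicate 1. Both libraries step up at exon 18, and 52.4% of reads in replicate 2 and 42.4% in replicate 1 start in exon 1.

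The share of reads that use the first intron of the main transcript was below the median of genes of like length in both libraries for 7 of the 8 genes. For Nrap it was 51.7% in replicate 2 and 39.4% in replicate 1, where 636 genes of like length had medians of 80.8% in replicate 2 and 75.0% in replicate 1. For Xirp1 the shares were 65.0% in replicate 2 and 60.7% in replicate 1, against medians of 79.1% in replicate 2 and 73.1% in replicate 1 over 525 genes. For Xirp2 they were 0.984% (5 of 508) in replicate 2 and 0 of 425 in replicate 1, which allows up to 0.864%, against medians of 75.0% in replicate 2 and 70.4% in replicate 1 over 37 genes. The gap to genes of like length was widest for Xirp2 in both libraries. Csrp3 had 87.5% in replicate 2 and 85.7% in replicate 1, beside medians of 93.2% in replicate 2 and 92.1% in replicate 1. Ankrd2 had 79.4% in replicate 2 and 88.9% in replicate 1, beside medians of 92.0% in replicate 2 and 91.3% in replicate 1. Fhl3, with few reads, had 66.7% (8 of 12) in replicate 2 and 8 of 16 in replicate 1, beside medians of 91.6% in replicate 2 and 90.5% in replicate 1. All Ankrd1 reads, 13 in replicate 2 and 2 in replicate 1, used the first intron. Fhl1 had 89.3% in replicate 2 and 68.1% in replicate 1, beside medians of 90.2% in replicate 2 and 88.3% in replicate 1, and its reads from the downstream first exon count here as not using the first intron of Fhl1-204.

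Nearly all Xirp2 reads were of a pair of kinds, those that join the long exon 7 of 9 (9265 nt, chr2:67507909-67517173) to the exon after it, and single-exon reads over the last exon. Reads that joined exon 7 to the next numbered 314 (61.8%) in replicate 2 and 174 (40.9%) in replicate 1. Those that joined the exon before it numbered 10 in replicate 2 and 5 in replicate 1. The most read 3-exon model covered exons 7 to 9 with 11234 nt in replicate 2 and 10405 nt in replicate 1, most of the 11979 nt of Xirp2-202, although the extent of a model does not give the length of each read in it. Single-exon reads made up 37.2% of Xirp2 reads in replicate 2 (189) and 58.6% in replicate 1 (249). Of these, 184 in replicate 2 and 246 in replicate 1 were on a model that overlaps the last exon (chr2:67524772-67526614). Xirp2 was thus counted almost wholly from models that lack the first 6 exons, and its mean level was 1.28 CPM when only annotated transcripts were counted.

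The class given to single-exon models differed between the tables for Xirp2, Fhl1 and Fhl3, and was the same for Xirp1, Nrap and Ankrd2. All 189 single-exon Xirp2 reads of replicate 2 were classed as genomic, while 246 of the 249 of replicate 1 were classed as incomplete splice matches. The models themselves differed in extent, the most read one spanning 5190 nt (chr2:67522558-67527747) in replicate 2, past both ends of the last exon, and 1835 nt within that exon in replicate 1. Single-exon Fhl1 reads were likewise 28 genomic in replicate 2 and 14 incomplete in replicate 1. For spliced models the most read unannotated 42-exon chain of Nrap, with 131 reads in replicate 2 and 51 in replicate 1, was classed as a new combination of known splice sites in replicate 2 and as having a new splice site in replicate 1. Over all genes 1645 of 18414 unannotated chains found in both libraries (8.93%) carried different classes. Annotated transcripts took 52.3% of the reads of the 8 genes in replicate 2 and 21.5% in replicate 1. For all annotated genes the shares were 60.8% in replicate 2 and 64.2% in replicate 1. The share of the 8 genes in replicate 1 is weighted by Xirp2, with 0 of 425 reads on annotated transcripts, and by Nrap, with 88 of 434.

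The neighbours of the members in the muscle were described by lists of related genes, with all 9032 genes (median log2 ratio 0.19) beside them. Of all 9032 genes, 8.24% were called higher and 2.04% lower. Of 17 tested LIM, nebulin and ankyrin relatives, 5 were called higher, 0 lower and 12 had no call, with a median of 0.47. Lmcd1, a LIM gene that represses GATA6, had 190 reads in replicate 2, against 26 in replicate 1, and Pdlim1, a PDZ-LIM gene of actin filaments, had 45 in replicate 2 and 15 in replicate 1. Ankrd23, the third muscle ankyrin repeat gene beside Ankrd1 and Ankrd2, had 2564 reads in replicate 2 and 3361 in replicate 1, a log2 ratio of -0.03 that had no call. Fhl2, the LIM-only relative known from the heart, was called on 9 reads in replicate 2 and 1 in replicate 1.

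Of 16 genes listed as Z-disc and titin partners of the members, 4 were called higher, 0 lower and 12 had no call. Their median log2 ratio was 0.46. The called genes included Actn2, alpha-actinin 2, with 2882 reads in replicate 2 and 580 in replicate 1, and the small heat-shock gene Hspb7 with 140 in replicate 2 and 22 in replicate 1. Titin itself (Ttn) had no call, at a log2 ratio of 0.94. Of 18 actin, filamin and integrin partners of Xin and NRAP, 7 were called higher, 0 lower and 11 had no call, with a median of 0.76. The filamin gene Flnc had a log2 ratio of 1.86, and Enah, an actin filament elongation gene, had 47 in replicate 2 and 6 in replicate 1. Under TMM scaling 3 genes of this list were called higher, and after length centring 2 were.

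Of 20 YAP, SRF and mechanical stress genes, 10 were called higher, 0 lower and 10 had no call, with a median log2 ratio of 1.18. Under TMM scaling 8 of them were called higher, and after length centring 9 were. Ccn1, a secreted YAP target, had 142 reads in replicate 2 and 19 in replicate 1. Otud1, a deubiquitinase gene, had 636 in replicate 2 and 33 in replicate 1. Srf and Mrtfa themselves had no call, at log2 ratios of -0.33 and -0.08, as had Yap1 at 0.75. These lists were drawn up with results of the same libraries known, and the slow-fibre, endothelial and smooth-muscle markers given above were higher in replicate 2 too.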

How the data were processed

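Long-read RNA-seq reads of 2 gastrocnemius libraries were analysed. The authors deposited a table of raw read counts by transcript model for each library. Per the READMEs deposited with the samples, reads came from a filtered alignment to mm10 with GENCODE M21, and TALON is named as the source of the models in the deposited annotations. No aligner, version, model filter or library strand is stated in the sources used here. Counts were summed per annotated gene. Genes with 10 or more reads in the pair of libraries were compared by two-sided Fisher's exact test with Benjamini-Hochberg adjustment (scipy 1.17.1), as were the most read transcript (at least 20 reads in each library) and internal exons (at least 20 informative reads). Fisher's test replaced a replicated model because each side is 1 library. Centring subtracted the median ratio of 20 bins of transcript length. Calls after centring re-applied the 2-fold cut only and kept the adjusted p of the uncentred test. TMM came from edgeR 4.0.16 and size factors from DESeq2 1.42.0, for scaling only. Log2 ratios use a pseudocount of 1 CPM and understate low genes. A floor of 3 reads is 2.56 CPM in replicate 2 and 1.99 CPM in replicate 1. Tests were tested on simulated data. Members, lists and transcript or exon rules were chosen with earlier results of these data known. Named genes are the 8 members, the 3 nearest in ratio to each 2-fold member, and examples of list counts. Beyond the promoter windows and the transcript sequences, no genome or protein sequence was used.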

Additional observations from a re-analysis of the deposited data

Results flagged for a closer look

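Antisense models, which the gene counts leave out, overlapped 7 of the 8 genes, and those above the floor of 3 reads are given here as reads outside the main measurement. The strand of library and counting is not stated in the sources used here. Antisense models took 3.29% of all reads in replicate 2 and 1.83% in replicate 1. The share of all annotated genes with an antisense model was not determined, so nothing is read from the 7 of 8. Nrap had 29 antisense reads in replicate 2 and 5 in replicate 1, and Fhl3 had 18 in replicate 2 and 13 in replicate 1, beside only 12 and 16 sense reads. In replicate 2 Ankrd2 had 13 antisense reads, Xirp2 had 7, Ankrd1 had 6 and Fhl1 had 5. Their source was not tested.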

How the results depend on the processing

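The count of 6 genes called higher was kept under TMM and DESeq2 scaling, other read classes, another pseudocount, thinning, no read minimum and length centring. It was 5 when at least 4-fold was required, where Nrap lost its call at an unchanged log2 ratio of 1.74. At that cut 162 of all 9032 genes were called higher and 39 lower. Counting annotated transcripts alone left 1 gene of 2 with a called transcript share. Under TMM 1 gene of the related lists was called lower, against 0. Across all genes TMM called 446 higher and 375 lower, DESeq2 size factors 442 and 384, against 744 and 184 on total reads. Leaving out each library in turn, the 8 genes took 0.0712% to 0.346% of reads and the share of annotated transcripts was 21.5% to 52.3%. With annotated transcripts only, and without incomplete and genomic reads, the 8 genes took 0.0980% and 0.123% of reads in place of 0.208%, the Nrap mean was 161 and 319 CPM in place of 624 CPM, and the Xirp1 mean 221 and 260 CPM in place of 397 CPM. The Xirp2 mean was 1.28 CPM with annotated transcripts only and 3.41 CPM without incomplete and genomic reads. The Fhl3 mean moved from 10.4 CPM to 5.40, 6.82 and 10.9 CPM with annotated transcripts, without incomplete and genomic reads, and with annotated-gene reads as the total. The cause of these shifts was not tested. Ratios without a call changed sign, that of Xirp2 from 0.62 to -0.13 after length centring and that of Fhl3 from -0.05 to 0.65 and 0.32 with annotated transcripts only and without incomplete and genomic reads. No paired analysis was possible because the design has 1 group. With 2 libraries, Ankrd1, Fhl3 and the replicate 1 reads of Xirp1 and Csrp3 are limited by depth.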
